A study of Mus musculus with 12 samples.

Results

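Cells with bright and with dim tdTomato (tdT) fluorescence, sorted from the same wild type (WT) mice and all labelled glomerular endothelial cells (GEC), were compared. Pan-leukocyte markers summed to 6992 to 11609 CPM (counts scaled to a common library size) in the dim tdT and 31.2 to 86.1 in the bright tdT libraries, and pan-endothelial markers to 1025 to 1679 in the dim tdT and 14368 to 18770 in the bright tdT libraries. The markers of the dim tdT libraries were thus not those of endothelium alone, and the cells are named here by their brightness. The comparison took 6 of the 12 libraries of the series, 1 dim tdT and 1 bright tdT library from each of 3 WT mice, paired by the animal number that the labels of both libraries carry. The genes compared were the 15768 that the deposited dim tdT and bright tdT tables both list, without the ERCC spike-ins. All mice were C57BL/6, 4 months old and carried the TekCre tdTomato reporter, in which Cre recombinase under the control of Tek switches on the red fluorescent protein tdTomato. Glomeruli were sieved from digested renal cortex and dissociated, and single tdT cells were sorted by their brightness. The other 6 libraries, of Alport (AS) mice labelled Col4a5 -/-, entered only a test of whether the difference between bright tdT and dim tdT cells was the same size in them. Tek-Cre is also known to recombine in haematopoietic cells, and the stated gates were on size, single cells and tdT, with no leukocyte marker named.

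GEC line the glomerular capillaries as a thin fenestrated sheet under a glycocalyx, and share a basement membrane with the podocytes on the urinary side. They are kept alive by VEGF from the podocytes through the receptor Kdr, and stabilised by angiopoietin 1 through Tek, the receptor whose regulatory sequence drives the reporter. Cre changes the reporter for good, so that a cell and its descendants stay labelled once Cre has acted in them.

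The libraries held 11440169 to 12624608 counts on genes in the dim tdT and 13674045 to 15007638 in the bright tdT group, and the genes in both tables took at least 99.28% of them. Subpopulation separated the libraries along the first principal component, which held 66.0% of the variance. Along the second (13.5%) both libraries of mouse 1 lay toward one end and the dim tdT library of mouse 3 at the other. Mouse 1 had the highest summed level of proximal tubule markers in both of its subpopulations, and the dim tdT library of mouse 3 the highest of neutrophil markers. ERCC spike-ins took 0.153% to 0.282% of the counts in the dim tdT and 0.0303% to 0.110% in the bright tdT libraries, and their part in the results was not tested. The values below are CPM, a gene's count scaled to a common library size with edgeR's TMM factors, and are given for mice 1, 2 and 3 in this order. CPM do not account for gene length, so levels of different genes and sums of different lists are only roughly comparable within a library. The tests compare libraries. Log2 fold changes are positive for genes that were higher in bright tdT cells. Unless another fit or tool is named beside it, an adjusted p is from edgeR (quasi-likelihood test with the mouse as a block). Adjustment was by Benjamini-Hochberg over the genes tested in that fit. A gene was called when this p was below 0.05.

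Of the 15768 genes 14247 passed the filter on low counts and were tested. Of these 31.2% were called, 16.1% of all tested being higher and 15.1% lower in bright tdT cells, and the median log2 fold change over all genes was -0.02. The 2287 genes called higher and the 2155 called lower differed in how far they moved. A log2 fold change above 5 was fitted for 25 genes called higher, whereas 316 genes called lower were below -5. Leaving out mouse 2 lowered the calls from 4442 to 1909, and leaving out mouse 1 or mouse 3 to 2991 and 3750. A gene called with all mice and with 1 left out had the same direction in both fits. The 2 groups did not overlap in 41.9% of all genes tested, and in 4024 of the genes called. Of the 167 genes given with values below, 83 overlap another annotated gene and 26 a protein-coding one. How reads were assigned where such a pair overlaps is uncertain, and the strand setting of the counting is not given in the sources used here.

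**Figure D1:**
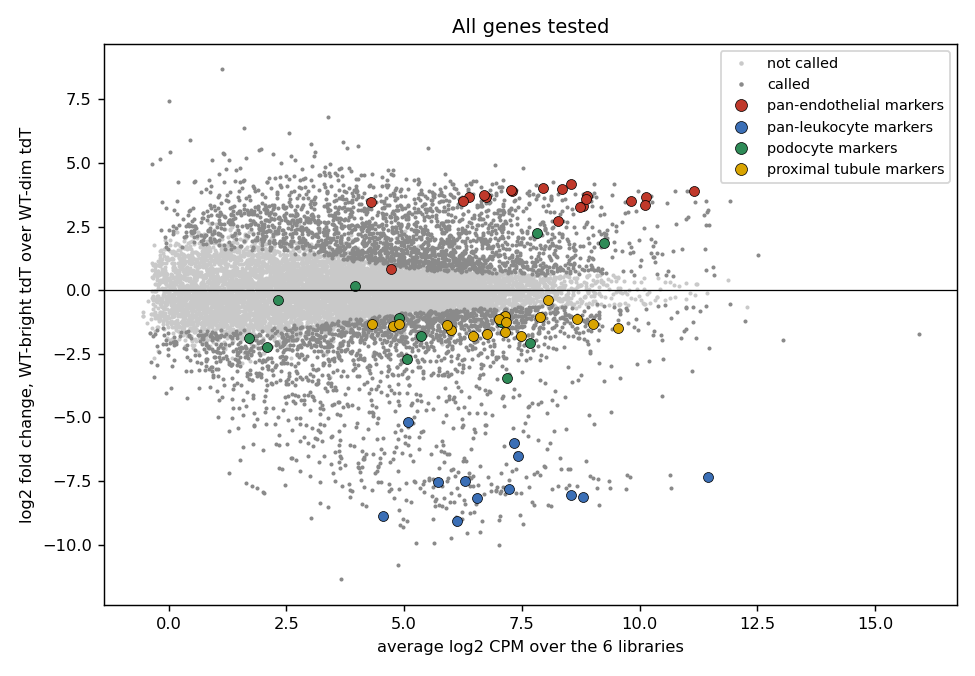
Log2 difference between WT-bright tdT and WT-dim tdT libraries against the average log2 CPM of each gene tested, with called genes in dark grey and marker lists in colour (n = 3 mice). Pan-endothelial markers sit above 0, pan-leukocyte markers between -9.06 (Cd48) and -5.18 (Cd37), and podocyte markers on both sides of 0.

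Endothelial genes were higher in bright tdT cells. Of the 20 pan-endothelial markers tested 19 were called higher and 0 lower, with a median log2 fold change of 3.66, and the same number was called when any 1 mouse was left out. Cldn5, a tight junction claudin, was at 15.5, 16.8 and 23.03 CPM in dim tdT and 34.2, 19.3 and 49.6 CPM in bright tdT libraries and was not called (log2 fold change 0.83, standard error 0.33, adjusted p = 0.0969). Tek itself was at 19.1, 17.2 and 10.501 CPM in dim tdT and 144, 272 and 179 CPM in bright tdT libraries, all bright tdT libraries above all dim tdT libraries. Emcn, the endothelial sialomucin endomucin, was at 330.0, 308 and 228 CPM in dim tdT and 4180, 3505 and 5093 CPM in bright tdT libraries. Its lowest bright tdT library was more than 10 times its highest dim tdT library (log2 fold change 3.88, standard error 0.25, adjusted p = 5.68e-05). Cdh5, the cadherin of endothelial junctions, was at 45.3, 56.2 and 21.8 CPM in dim tdT and 562, 876 and 689 CPM in bright tdT libraries, without overlap (log2 fold change 4.17, standard error 0.31, adjusted p = 0.000102). Pecam1, which encodes CD31, was at 96.3, 98.7 and 51.0 CPM in dim tdT and 581, 1078 and 767 CPM in bright tdT libraries and also did not overlap (log2 fold change 3.31, standard error 0.29, adjusted p = 0.00022). In bulk libraries fewer cells of a type and less RNA per cell cannot be told apart.

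All 7 markers of glomerular capillary endothelium were called higher, with medians of 3.13, 3.63 and 3.06 in the 3 mice. Ehd3, an endocytic recycling protein found in the kidney mainly in GEC, was at 262, 412 and 127 CPM in dim tdT and 2405, 5773 and 3409 CPM in bright tdT libraries (chromosome 17, 73804134 to 73832094, plus strand). The 3 bright tdT libraries lay above every dim tdT library, and mouse 2 was highest in both subpopulations (log2 fold change 3.91, standard error 0.32, adjusted p = 0.000159). Plat, tissue plasminogen activator, was at 648, 593 and 624 CPM in dim tdT and 5690, 7568 and 8076 CPM in bright tdT libraries (log2 fold change 3.50, standard error 0.20, adjusted p = 3.13e-05). Gata5 and Tbx3, transcription factors of GEC, had log2 fold changes of 3.81 and 2.69. Markers of larger vessels moved mostly the same way. Of 10 arterial markers 8 were called higher, among them the Notch ligand Dll4 at 9.12, 15.03 and 9.74 CPM in dim tdT and 136, 235 and 192 CPM in bright tdT libraries (log2 fold change 4.05, standard error 0.26, adjusted p = 5.12e-05). The ephrin receptor Ephb4, a venous marker, rose by 3.80 on the log2 scale. Vwf, von Willebrand factor of large-vessel endothelium and platelets, was at 6.13, 10.2 and 9.99 CPM in dim tdT and 1.95, 2.28 and 2.08 CPM in bright tdT libraries and was lower (log2 fold change -2.04, standard error 0.47, adjusted p = 0.0152), a call lost without mouse 2. Of 5 venous and peritubular markers 3 were higher and 1 lower, and of 3 lymphatic markers 1, Flt4, was higher. The share of lymphatic markers called, 33.3%, lay near the 31.2% of all genes tested.

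**Figure D2:**
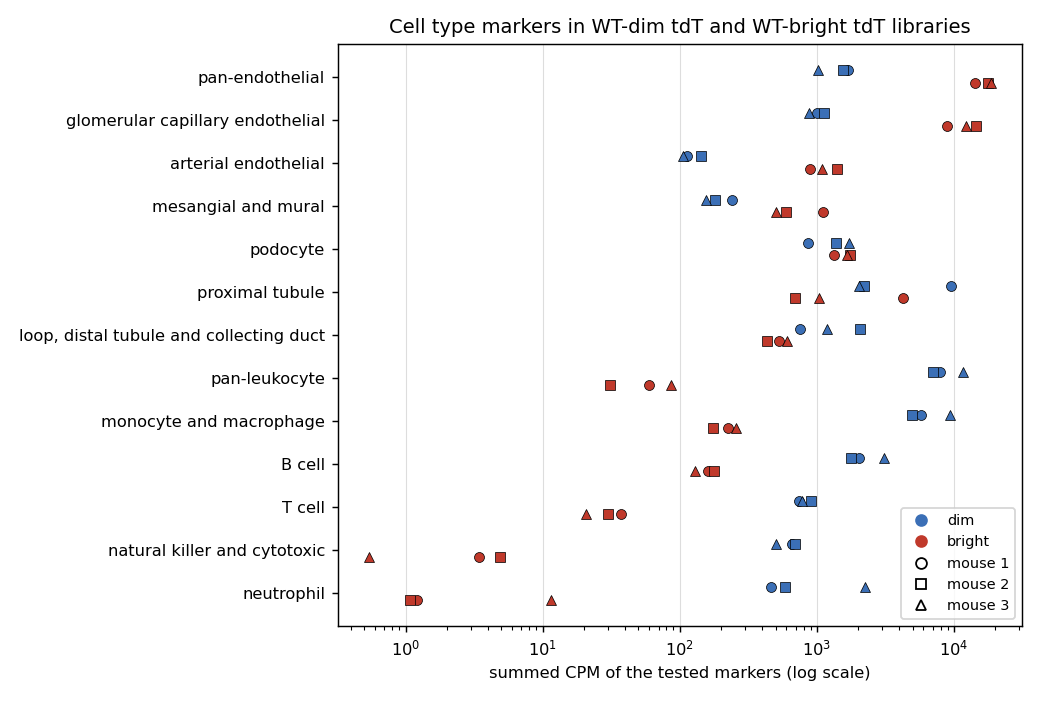
Summed CPM of the tested markers of 13 cell types in each library, on a log scale, with dim tdT libraries in blue and bright tdT libraries in red (n = 3 mice, one symbol per mouse). Pan-endothelial markers summed to 14368 to 18770 CPM in the bright tdT and 1025 to 1679 in the dim tdT libraries, and pan-leukocyte markers to 31.2 to 86.1 and 6992 to 11609.

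The promoters of 2 genes that were higher in bright tdT cells, Tek and Ehd3, and of 2 that were lower, Ptprc and Cd79a, are shown because these genes stand for the endothelial and the leukocyte ends of the comparison. Each run is the 250 bases before a RefSeq start site on GRCm38.p6, written 5′ to 3′ on the gene's strand. The gene annotation used for the coordinates in this report starts Ehd3 and Ptprc further upstream, so that their runs lie within the annotated genes. The run of Cd79a crosses its annotated start, and the run of Tek ends just before it. Capitals mark GGAA or its reverse complement TTCC, the core that ETS factors such as Erg and Spi1 recognise.

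Tek (chr4:94739039-94739288, plus strand): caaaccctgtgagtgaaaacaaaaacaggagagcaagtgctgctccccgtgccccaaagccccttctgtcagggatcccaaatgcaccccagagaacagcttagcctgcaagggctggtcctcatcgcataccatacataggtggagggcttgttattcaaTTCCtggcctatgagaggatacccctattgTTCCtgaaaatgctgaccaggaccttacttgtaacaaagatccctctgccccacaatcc

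Ehd3 (chr17:73804591-73804840, plus strand): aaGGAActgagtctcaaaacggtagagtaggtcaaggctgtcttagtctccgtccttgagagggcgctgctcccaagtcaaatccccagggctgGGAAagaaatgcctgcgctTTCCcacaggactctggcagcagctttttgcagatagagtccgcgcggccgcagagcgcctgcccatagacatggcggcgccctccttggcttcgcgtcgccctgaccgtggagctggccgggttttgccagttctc

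Ptprc (chr1:138175306-138175555, minus strand, the first of its 2 start sites): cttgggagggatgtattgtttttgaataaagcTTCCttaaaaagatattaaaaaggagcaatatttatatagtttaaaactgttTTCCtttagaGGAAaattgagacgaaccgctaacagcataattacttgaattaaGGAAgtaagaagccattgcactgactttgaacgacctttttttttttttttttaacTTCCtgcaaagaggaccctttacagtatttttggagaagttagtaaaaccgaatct

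Cd79a (chr7:24897247-24897496, plus strand): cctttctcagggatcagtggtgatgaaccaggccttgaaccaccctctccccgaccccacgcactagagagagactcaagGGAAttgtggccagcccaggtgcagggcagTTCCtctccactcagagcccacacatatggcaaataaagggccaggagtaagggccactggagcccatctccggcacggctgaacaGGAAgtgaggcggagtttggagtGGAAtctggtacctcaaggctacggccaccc

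The core occurred 2 times before Tek, 3 times before Ehd3, 5 times before Ptprc and 4 times before Cd79a. It was common everywhere, in 95.1% of the genes called higher, 97.2% of those called lower and 96.5% of all genes with a promoter, counting the 300 bases from 250 before to 50 after each start. Longer motifs, searched on both strands, were in none of the 4 stretches. CCGGAAG, an ETS motif, was in 11.5% of the genes called higher, 14.1% of those called lower and 22.9% of the genes tested and not called. GAGGAAG, the ETS motif preferred by PU.1, was in 17.9% of the genes called higher, in 289 of 1447 called lower and in 14.7% of those not called. The forkhead motif TGTTTAC was in 2.75% of the genes called higher and 4.22% of those called lower. For the motif AGATAAG of GATA factors these shares were 2.69% and 2.97%. For the HNF1 motif GTTAAT they were 5.03% and 6.98%. Over all genes with a promoter the 5 motifs, in this order, were in 9.93%, 15.4%, 4.05%, 3.50% and 8.24%. A promoter was found by symbol for 9803 of the 14247 genes tested, and the shares are descriptions of these letters only.

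Receptors of the VEGF and angiopoietin system rose in bright tdT cells, as did the ligands Vegfc and Vegfa. Of 15 genes tested 10 were called higher and 1 lower (median 2.72). Kdr, the main VEGF receptor of endothelium, was at 154, 167 and 109 CPM in dim tdT and 1252, 2073 and 1634 CPM in bright tdT libraries, 11.5-fold higher and without overlap (log2 fold change 3.52, standard error 0.24, adjusted p = 6.56e-05). Flt4, the VEGF-C receptor, was at 1.11, 1.95 and 0.254 CPM in dim tdT and 25.4, 33.9 and 24.2 CPM in bright tdT libraries (log2 fold change 4.67, standard error 0.53, adjusted p = 0.000651). The co-receptor Nrp1 and the phosphatase Ptprb, which acts on Tek, rose by 3.70 and 3.67. Among the ligands Vegfc rose by 2.26 and Vegfa by 1.15 (calls lost without mouse 1 and mouse 2, respectively), whereas Angpt2 (1.23, adjusted p = 0.0692) and Angpt1 (0.87, adjusted p = 0.236) were not called. Angpt2 was called higher with DESeq2 (adjusted p = 0.0207) and with the likelihood ratio test. Svep1, an extracellular protein that binds the related receptor Tie1, was at 5.62, 4.25 and 1.78 CPM in dim tdT and 0.134, 0.214 and 0.202 CPM in bright tdT libraries and was the only member called lower (log2 fold change -4.32, standard error 0.64, adjusted p = 0.000873).

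Transcription factors of the endothelial and haematopoietic lineages moved in opposite directions. Of 20 endothelial factors 13 were called higher, and of 16 haematopoietic factors 13 were called lower and 0 higher (medians 2.16 and -3.11). The SOXF factor Sox7 was at 10.6, 19.6 and 7.88 CPM in dim tdT and 252, 339 and 478 CPM in bright tdT libraries, one of the 12 genes with the highest fold changes among called genes without overlap and with a mean of at least 100 CPM in a group (log2 fold change 4.82, standard error 0.38, adjusted p = 0.000146). Sox17 and Sox18, of the same family, rose by 3.84 and 4.52. Klf2 and Klf4, induced in endothelium by blood flow, rose by 1.61 and 2.22. Among ETS factors Erg rose by 3.45 and Fli1 by 0.80, Ets1 was not called (-0.31, adjusted p = 0.288), and Spi1, which encodes PU.1 of myeloid and B cells, was lower (-7.56). Ikzf1, the lymphoid factor Ikaros, was at 249, 368 and 380.0 CPM in dim tdT and 4.10, 6.48 and 5.72 CPM in bright tdT libraries (log2 fold change -5.93, standard error 0.26, adjusted p = 8.67e-06). Irf8, also a haematopoietic factor, was at 1056, 1025 and 814 CPM in dim tdT and 478, 511 and 714 CPM in bright tdT libraries, lower in bright tdT cells without overlap (log2 fold change -0.78, standard error 0.23, adjusted p = 0.0385). The call of Irf8 was lost without mouse 1 or mouse 2, with library sizes alone and with edgeR's older dispersion fit, and the call of Fli1 without mouse 2 or without the mouse block. Lyl1, a factor shared by endothelial and blood progenitors, was the one endothelial factor called lower (-3.24). Of 13 renal epithelial factors 4 were lower and 1 higher, with 1 call without mouse 2. The share called, 38.5%, lay near the 31.2% of all genes tested. Hnf4a of the proximal tubule was at 396, 115 and 67.0 CPM in dim tdT and 173, 38.6 and 57.6 CPM in bright tdT libraries (log2 fold change -1.003, standard error 0.29, adjusted p = 0.0382), a call lost without mouse 1, without mouse 2, without the mouse block, with library sizes alone, without a filter on low counts and with edgeR's older dispersion fit.

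Notch and BMP genes rose with the endothelial markers. In the Notch list 11 of 14 were called higher and 2 lower, 13 calls that became 6 without mouse 2. The ligands Jag2 and Dll4 and the target Hey1 rose by 3.33, 4.05 and 3.69, and the endothelial receptor Notch4 by 3.28. The call of Hey1 was lost without mouse 2. Notch2, a receptor with a role in B cells and macrophages, was at 52.5, 68.4 and 70.8 CPM in dim tdT and 3.56, 5.06 and 6.05 CPM in bright tdT libraries and moved the other way (log2 fold change -3.72, standard error 0.31, adjusted p = 0.00019). In the BMP and TGF-beta list 16 of 21 were called higher and 0 lower. The target Id1 was at 119, 159 and 139 CPM in dim tdT and 1250, 1641 and 1687 CPM in bright tdT libraries (log2 fold change 3.45, standard error 0.19, adjusted p = 2.41e-05). The ligands Bmp2, Bmp4 and Bmp6 rose by 4.25, 3.38 and 3.12, the co-receptor endoglin (Eng) by 3.60 and the inhibitory Smad6 by 4.16. The calls of Bmp4 and Bmp6 were lost without mouse 2. Tgfb1 and its type I receptor Tgfbr1 had log2 fold changes of -0.86 and -0.89 and were not called (adjusted p = 0.0617 and 0.0502). Both were called lower with DESeq2 (adjusted p = 0.0287 and 0.0236), with the likelihood ratio test, above an average log2 CPM of 1 and in the fit of all 12 libraries, and Tgfbr1 with RLE normalization as well.

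**Figure D3:**
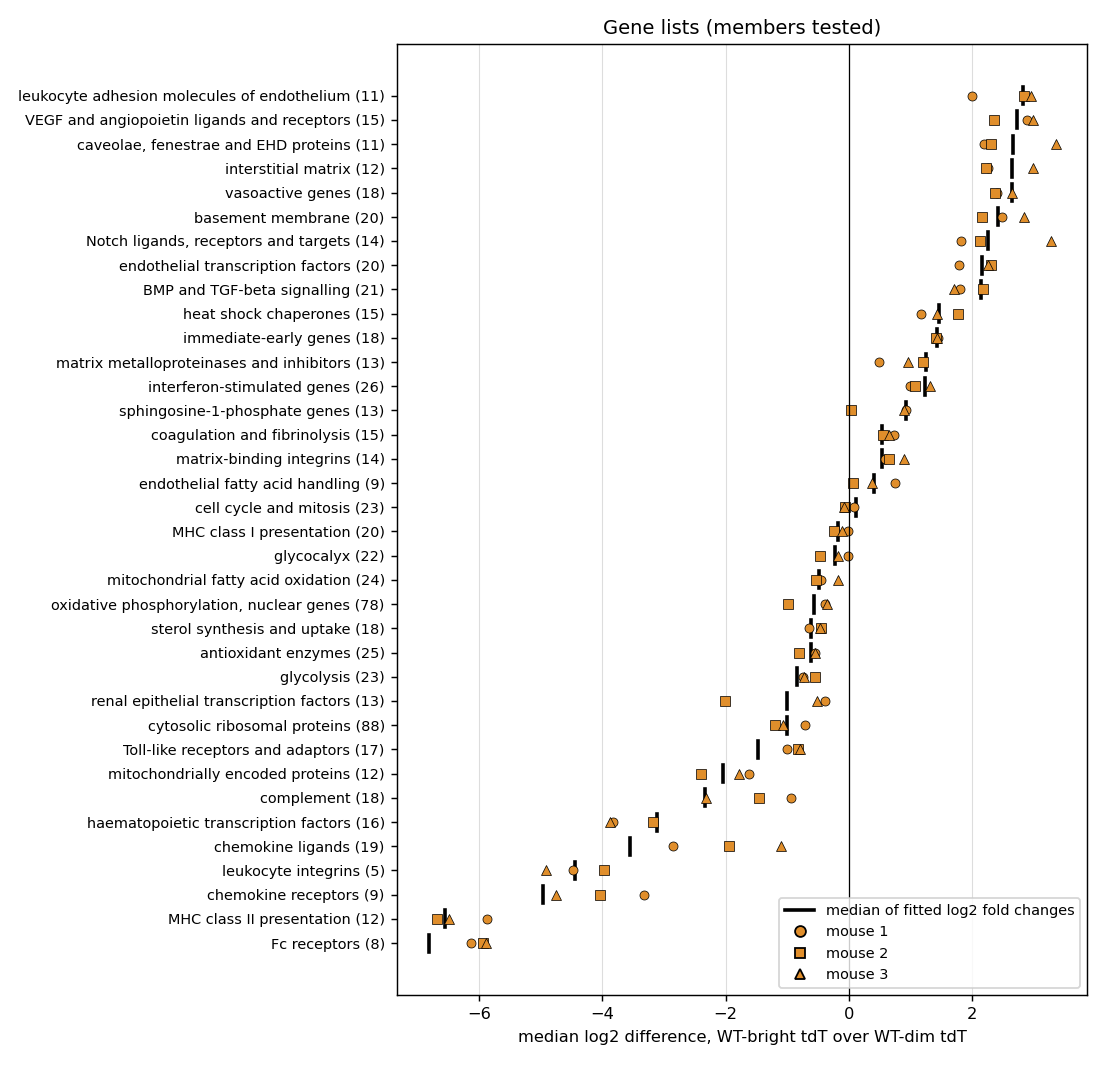
Median log2 difference between WT-bright tdT and WT-dim tdT libraries for the members of each functional gene list, as the median of the fitted values (bar) and in each of the 3 mice (points), with the number of members tested in parentheses. Endothelial lists lie to the right of 0 and leukocyte lists to the left, while MHC class I and glycocalyx lie near 0.

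Genes of the specialised endothelial membrane and of vascular tone were higher in bright tdT cells, with named exceptions. Of 11 caveolar, fenestral and EHD genes 9 were called higher, including Cav1 of caveolae (2.80) and Plvap of fenestral diaphragms. Plvap was low, at 1.87, 2.97 and 0.169 CPM in dim tdT and 15.6, 16.6 and 12.4 CPM in bright tdT libraries (log2 fold change 3.20, standard error 0.59, adjusted p = 0.00602). Ehd1 was at 92.3, 85.7 and 171 CPM in dim tdT and 16.6, 20.2 and 50.8 CPM in bright tdT libraries and fell (log2 fold change -2.09, standard error 0.26, adjusted p = 0.00101), opposite to its relatives Ehd2, Ehd3 and Ehd4 (2.57, 3.91 and 1.79). Among 18 vasoactive genes 14 were called higher. The endothelin receptor Ednrb was at 14.9, 14.1 and 9.48 CPM in dim tdT and 212, 262 and 312 CPM in bright tdT libraries (log2 fold change 4.34, standard error 0.31, adjusted p = 8.57e-05). The ligand Edn1, the nitric oxide synthase Nos3 and the adrenomedullin receptor Calcrl rose by 3.27, 2.98 and 3.56. Ace, angiotensin converting enzyme, was at 53.9, 81.6 and 57.7 CPM in dim tdT and 4.23, 10.8 and 7.26 CPM in bright tdT libraries and was lower (log2 fold change -3.16, standard error 0.32, adjusted p = 0.000402). Ptgs2, the inducible cyclooxygenase, was lower too (-4.38), whereas the constitutive Ptgs1 was higher (2.48).

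In coagulation and fibrinolysis 7 of 15 genes were called higher and 2 lower. The thrombin receptor F2r and thrombomodulin (Thbd) rose by 3.28 and 2.60. F8, factor VIII, was at 15.2, 11.3 and 2.46 CPM in dim tdT and 181, 209 and 132 CPM in bright tdT libraries (log2 fold change 4.31, standard error 0.40, adjusted p = 0.000281). Thbs1, thrombospondin 1, was at 234, 353 and 976 CPM in dim tdT and 5.17, 4.84 and 8.34 CPM in bright tdT libraries, with mouse 3 highest in both subpopulations, and fell (log2 fold change -6.23, standard error 0.33, adjusted p = 2.34e-05). Lipid handling was split. Gpihbp1, which carries lipoprotein lipase to the capillary lumen, was at 17.3, 4.42 and 4.15 CPM in dim tdT and 364, 160.4 and 183 CPM in bright tdT libraries and had the highest fold change of the genes named by size (log2 fold change 4.92, standard error 0.31, adjusted p = 5.05e-05). Lpl, the lipase itself, rose by 1.64 (a call lost without mouse 2). The fatty acid transporter Cd36 was at 87.3, 72.4 and 68.2 CPM in dim tdT and 37.8, 46.6 and 29.4 CPM in bright tdT libraries and was lower (log2 fold change -1.02, standard error 0.26, adjusted p = 0.0216), a call that was lost when any 1 mouse was left out. The list of endothelial fatty acid handling had 4 genes called higher and 1 lower of 9, and 3 calls without mouse 1 and 2 without mouse 2. Of 13 sphingosine-1-phosphate genes 5 were called higher and 3 lower. The lipid phosphatases Plpp3 and Plpp1 rose by 3.92 and 3.77, while Sgpl1, the lyase that breaks the lipid down, and the lymphocyte receptor S1pr4 were lower (-2.06 and -1.98).

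Endothelial molecules that bind leukocytes were higher in bright tdT cells, in 9 of 11 genes, and 0 were called lower. Icam1 was at 17.1, 26.8 and 11.1 CPM in dim tdT and 42.4, 108 and 47.3 CPM in bright tdT libraries (log2 fold change 1.81, standard error 0.30, adjusted p = 0.00357), a call lost without mouse 2. Icam2 and Cd34 rose by 2.74 and 3.16 (the latter not called without mouse 2). Vcam1, a ligand of leukocyte integrins, was at 3.49, 0.849 and 1.95 CPM in dim tdT and 6.04, 8.26 and 6.52 CPM in bright tdT libraries and missed the threshold (log2 fold change 1.74, standard error 0.58, adjusted p = 0.0571), which it passed with DESeq2 (adjusted p = 0.0379), with the likelihood ratio test, above an average log2 CPM of 1 and in the fit of all 12 libraries. The integrins that leukocytes use to bind these molecules were lower, in 4 of 5 tested. Itgb2, the shared beta chain of leukocyte integrins, was at 222, 295 and 377 CPM in dim tdT and 0.806, 0.783 and 2.42 CPM in bright tdT libraries, 226-fold lower in bright tdT cells (log2 fold change -7.82, standard error 0.34, adjusted p = 9.69e-06).

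Basement membrane genes divided by the type of collagen IV chain. Of 20 genes tested 16 were called higher and 3 lower, and without mouse 2 the calls dropped from 19 to 11. Col4a1, of the collagen IV network of vascular basement membranes, was at 33.1, 33.7 and 20.4 CPM in dim tdT and 205, 309.8 and 219 CPM in bright tdT libraries (log2 fold change 3.08, standard error 0.26, adjusted p = 0.000172). Its partner Col4a2 rose by 3.11. Col4a5, the gene mutated in AS, was at 65.7, 37.3 and 74.3 CPM in dim tdT and 10.6, 4.91 and 5.25 CPM in bright tdT libraries, the reverse order (log2 fold change -3.10, standard error 0.36, adjusted p = 0.000735; chromosome X, 141475385 to 141689234, plus strand). Col4a4 was at 174, 228 and 239 CPM in dim tdT and 99.4, 78.0 and 72.6 CPM in bright tdT libraries (log2 fold change -1.36, standard error 0.25, adjusted p = 0.00608). Col4a3, the third chain of the glomerular network, was at 53.1, 59.3 and 45.5 CPM in dim tdT and 23.4, 25.1 and 16.9 CPM in bright tdT libraries (log2 fold change -1.28, standard error 0.27, adjusted p = 0.00996), so that the 3 chains known to be made by podocytes were the 3 members called lower. The call of Col4a4 was lost without mouse 2 and the call of Col4a3 without mouse 1 or mouse 2. Of the 12 podocyte markers 7 were lower in bright tdT cells, with Nphs1 at -2.69 and Ptpro at -3.43, 2 were higher, with Podxl at 1.87 and Clic5 at 2.24, and 3 were not called. The sums of the podocyte list overlapped, at 864 to 1711 CPM in the dim tdT and 1333 to 1737 in the bright tdT libraries. Podxl, which endothelium makes as well, held most of the sum in each bright tdT library. The overlap of the sums therefore does not show equal levels of the members that fell. The part of podocyte RNA in the collagen values was not tested. The other basement membrane genes apart from Col4a6 rose. Lama4, a laminin chain of vascular basement membranes, and perlecan (Hspg2) rose by 4.38 (not called without mouse 2) and 3.42. Peroxidasin (Pxdn), which crosslinks collagen IV, was at 46.7, 33.5 and 44.5 CPM in dim tdT and 492, 496 and 544 CPM in bright tdT libraries (log2 fold change 3.63, standard error 0.22, adjusted p = 4.04e-05).

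**Figure D4:**
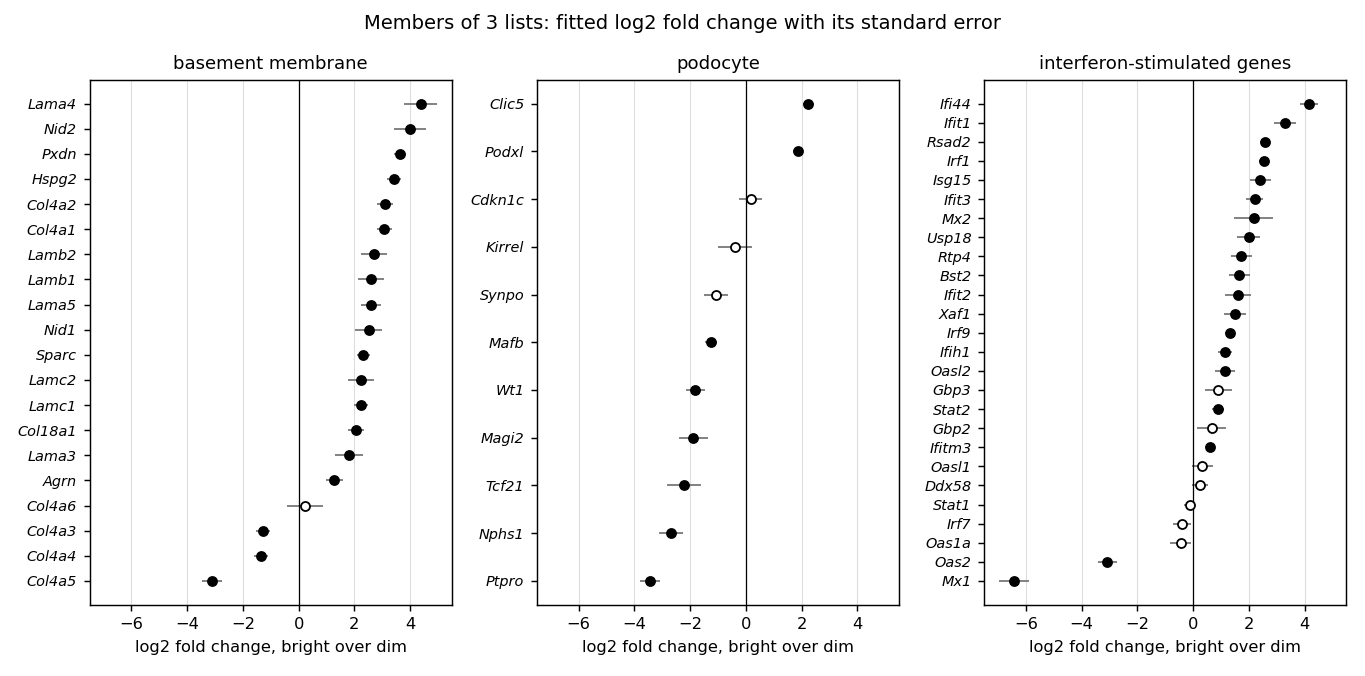
Fitted log2 differences between WT-bright tdT and WT-dim tdT libraries with their standard errors for members of 3 lists (filled symbols passed the threshold, open symbols did not; n = 3 mice). Col4a3, Col4a4 and Col4a5 lie to the left of 0, Podxl and Clic5 stand to the right among podocyte genes, and Mx1 and Oas2 stand to the left among interferon-stimulated genes.

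Interstitial matrix genes were split, with 9 of 12 called higher and 3 lower. Fibronectin (Fn1), at 548, 347 and 1142 CPM in dim tdT and 5.04, 15.6 and 28.0 CPM in bright tdT libraries, was lower in bright tdT cells (log2 fold change -5.44, standard error 0.43, adjusted p = 0.000145). Versican (Vcan) was lower as well (-5.49), and Fbln5 and Fbn1, of elastic fibres, rose by 3.16 and 3.76. The sum of the list was 446 to 1285 CPM in the dim tdT and 186 to 223 in the bright tdT libraries, while its median log2 fold change was 2.65. The members that fell were Fn1, Vcan and Col1a2. The 12 calls became 7 without mouse 2. Matrix-binding integrins had 7 calls higher and 3 lower of 14, and 5 calls without mouse 2. Itga6, a laminin receptor chain, rose by 2.07. Itgb6, an epithelial chain, was at 79.7, 17.9 and 22.9 CPM in dim tdT and 26.1, 7.90 and 11.03 CPM in bright tdT libraries, lower within each mouse although the groups overlapped (log2 fold change -1.31, standard error 0.31, adjusted p = 0.017). The call of Itgb6 was lost without mouse 1, without mouse 2 and without the mouse block. In the glycocalyx list 4 were called higher and 7 lower of 22, and 7 calls were made without mouse 2. The share called higher, 18.2%, lay near the 16.1% of all genes tested, and the share called lower was 31.8% beside 15.1%. Cd44, a hyaluronan receptor abundant on leukocytes, was at 820.1, 1006 and 1447 CPM in dim tdT and 3.49, 3.35 and 8.61 CPM in bright tdT libraries (log2 fold change -7.78, standard error 0.28, adjusted p = 5.29e-06). Esm1, an endothelial proteoglycan, was at 8.60, 6.79 and 0.762 CPM in dim tdT and 67.1, 116 and 97.4 CPM in bright tdT libraries (log2 fold change 4.17, standard error 0.57, adjusted p = 0.00157), a call lost without mouse 2. Of 13 metalloproteinases and inhibitors 4 were called higher and 3 lower, and 4 calls were made without mouse 2. Timp3, an inhibitor, rose by 1.81 (a call lost without mouse 2). Mmp9, a gelatinase of neutrophils, was at 83.9, 76.7 and 577 CPM in dim tdT and 0.403, 0.142 and 2.62 CPM in bright tdT libraries (log2 fold change -7.88, standard error 0.34, adjusted p = 3.58e-06).

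The libraries labelled dim tdT GEC held leukocyte transcripts next to endothelial ones. All 12 pan-leukocyte markers were called lower in bright tdT cells, with a median of -7.69, and they summed to 7983, 6992 and 11609 CPM in the dim tdT libraries and to 59.4, 31.2 and 86.1 CPM in the bright tdT libraries. Ptprc, which encodes the leukocyte antigen CD45, was at 678, 842 and 1127 CPM in dim tdT and 4.36, 1.99 and 2.96 CPM in bright tdT libraries (log2 fold change -8.12, standard error 0.36, adjusted p = 9.69e-06; chromosome 1, 138062861 to 138175708, minus strand). It was counted in each bright tdT library. Whether the leukocyte transcripts came from tdT cells or from other cells in the gate was not tested, nor was their part in the other genes that fell. Most markers of 5 leukocyte types were lower as well, with 10 of 10 for T cells, 5 of 5 for natural killer cells, 10 of 11 for B cells, 10 of 11 for monocytes and macrophages, and 3 of 3 for neutrophils called lower. T cell markers summed to 739 to 913 CPM in the dim tdT and 20.8 to 37.3 in the bright tdT libraries, and monocyte and macrophage markers to 4960 to 9379 and 176 to 257. Cd14 made up most of the monocyte and macrophage sum in each bright tdT library. Trac, a T cell receptor chain, was at 140.5, 162 and 109 CPM in dim tdT and 0.201, 0.427 and 0.202 CPM in bright tdT libraries (log2 fold change -8.92, standard error 0.37, adjusted p = 1.64e-06). Cd79a, of the B cell receptor, was at 52.7, 108 and 129 CPM in dim tdT and 0.134, 0.712 and 0.202 CPM in bright tdT libraries (log2 fold change -8.10, standard error 0.43, adjusted p = 5.5e-06). Lyz2, lysozyme of myeloid cells, was at 3108, 2319 and 4085 CPM in dim tdT and 31.2, 8.97 and 26.6 CPM in bright tdT libraries (log2 fold change -7.26, standard error 0.33, adjusted p = 1.06e-05).

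B cell markers summed to 1790 to 3092 CPM in the dim tdT and 129 to 179 in the bright tdT libraries, natural killer cell markers to 504 to 697 and 0.538 to 4.84, and neutrophil markers to 461 to 2248 and 1.07 to 11.6. The neutrophil marker S100a9 was at 127, 126 and 638 CPM in dim tdT and 0.336, 0.214 and 5.18 CPM in bright tdT libraries, highest in mouse 3 in both subpopulations. Gzmb, a granzyme of cytotoxic cells, was at 360.4, 389.7 and 313 CPM in dim tdT and 1.68, 0.214 and 0.404 CPM in bright tdT libraries (log2 fold change -8.84, standard error 0.45, adjusted p = 1.39e-05). Some members did not follow their list. The B cell factor Ebf1 was at 74.5, 74.0 and 189 CPM in dim tdT and 145, 172 and 118 CPM in bright tdT libraries and was not called (log2 fold change 0.50, standard error 0.38, adjusted p = 0.353). Without mouse 3, whose dim tdT library was the highest, its log2 fold change was 1.10 and it was called higher (adjusted p = 0.0132). Ebf1 made up most of the B cell sum in each bright tdT library. Mrc1, a mannose receptor of macrophages and some endothelia, was at 14.99, 16.5 and 8.81 CPM in dim tdT and 45.3, 24.4 and 23.9 CPM in bright tdT libraries and was called higher (log2 fold change 1.196, standard error 0.35, adjusted p = 0.0385), a call that did not hold when any 1 mouse was left out, without the mouse block or with edgeR's older dispersion fit. Zbtb46, a dendritic cell factor also made by endothelium, rose by 2.498. Clec9a rose by 4.44 too. It overlaps the gene Clec1b on the same strand, and the part of Clec1b in its counts was not tested. Of 6 dendritic cell markers 2 were thus higher and 3 lower. Of 3 platelet markers 2 were lower, with sums of 13.7 to 17.7 CPM in the dim tdT and 2.42 to 2.75 in the bright tdT libraries. Of 4 erythroid markers 1, the anion exchanger Slc4a1 (4.33), was higher, 25.0% called beside 31.2% of all genes tested. Of 6 mast cell markers 4 were in the dim tdT table and 0 in the bright tdT table, so that none could be tested.

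Genes listed in only 1 table could not be tested. There were 2043 such genes for dim tdT and 1753 for bright tdT cells, and each table lists only genes with more than 3 counts in at least 2 of its 6 libraries. Of 20 T cell markers 10 were listed for dim tdT cells alone, as were 7 of 12 for natural killer cells, 4 of 15 for B cells and 5 of 10 for neutrophils. They include Cd3d, Cd3e and Cd3g of the T cell receptor complex, Cd4, Pax5 of B cells, Ncr1 of natural killer cells and S100a8 of neutrophils, and Itgax of dendritic cells was listed in the same way. The counts of Klrd1, a natural killer cell receptor, were 765, 1021 and 834 in dim tdT cells of WT mice. Those of the Fc receptor Fcer2a of B cells were 888, 466 and 1126. On the bright tdT side the endothelial factor Tcf15, the peptide Apln and the smooth muscle genes Tagln and Myh11 were listed alone, and the counts of Myh11 were 72, 81 and 382.

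Immune pathways followed the leukocyte markers in part. All 12 MHC class II genes were lower, with Cd74, the invariant chain, at 986, 1224 and 1097 CPM in dim tdT and 9.26, 6.41 and 3.90 CPM in bright tdT libraries (log2 fold change -7.43, standard error 0.34, adjusted p = 1.06e-05). Of 20 MHC class I genes 1 was called higher and 3 lower, with a median of -0.17, beside 31.2% of all genes tested called in either direction. B2m, the light chain of class I molecules, was at 1161, 1348 and 1471 CPM in dim tdT and 1713, 1615 and 1679 CPM in bright tdT libraries and was not called (log2 fold change 0.34, standard error 0.17, adjusted p = 0.175). The 3 lower members were H2-Q6, H2-Q7 and Nlrc5, the class I transactivator (-1.54, -1.64 and -1.84). The H2 genes are near-identical copies whose counts are uncertain. Of 8 Fc receptor genes 7 were lower, and the neonatal receptor Fcgrt, which endothelium expresses, was not called (0.19, adjusted p = 0.556). Of 17 Toll-like receptor genes 8 were lower and 1, Tlr3 (2.65, a call lost without mouse 2), was higher. Cd14, a co-receptor of Tlr4, was at 2017, 1985 and 4056 CPM in dim tdT and 130.1, 112 and 189 CPM in bright tdT libraries (log2 fold change -4.17, standard error 0.20, adjusted p = 1.32e-05).

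Chemokine ligands had 11 genes called lower and 3 called higher of 19. Ccl6 of myeloid cells was at 1151, 761 and 2071 CPM in dim tdT and 6.65, 2.06 and 10.49 CPM in bright tdT libraries (log2 fold change -7.76, standard error 0.29, adjusted p = 5.93e-06). Cx3cl1, the membrane-bound chemokine of endothelium, was at 34.2, 34.6 and 18.1 CPM in dim tdT and 299.8, 513 and 378 CPM in bright tdT libraries and rose (log2 fold change 3.79, standard error 0.30, adjusted p = 0.000136). Cxcl10 and Cxcl1 rose by 2.85 and 2.27, and the call of Cxcl1 was lost without mouse 1. Of 9 chemokine receptors 7 were lower, among them Ccr2 of monocytes (-7.96) and Ccr7 of lymphocytes and dendritic cells (-7.74). In the complement list 10 of 18 genes were lower, with the 3 chains of C1q (-6.66, -7.79 and -6.08) and C3 (-5.36). The C1 proteases C1ra and C1s1 had the opposite direction (4.53 and 2.21), and the call of C1s1 was lost without mouse 1 or mouse 2. C1ra was at 0.511, 1.27 and 0.423 CPM in dim tdT and 20.1, 15.2 and 16.7 CPM in bright tdT libraries (log2 fold change 4.53, standard error 0.59, adjusted p = 0.001).

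Interferon-stimulated genes were mostly higher in bright tdT cells, 17 of 26, with 2 called lower and a median of 1.24. Rsad2, the antiviral protein viperin, was at 164, 206 and 206 CPM in dim tdT and 894, 1294 and 1315 CPM in bright tdT libraries (log2 fold change 2.59, standard error 0.18, adjusted p = 8.22e-05). Irf1, a factor of interferon responses, was at 229, 229 and 183 CPM in dim tdT and 1218, 1266 and 1215 CPM in bright tdT libraries, close to the same level in the 3 bright tdT libraries (log2 fold change 2.54, standard error 0.18, adjusted p = 9.56e-05). Mx1 was at 119.6, 83.8 and 155 CPM in dim tdT and 0.873, 2.78 and 0.471 CPM in bright tdT libraries and fell (log2 fold change -6.42, standard error 0.54, adjusted p = 0.000191). Oas2 fell too (-3.08), while Mx2 was higher (2.17). The call of Mx2 was lost without mouse 1 or mouse 2, with RLE normalization, without a filter on low counts and with edgeR's older dispersion fit. The calls of the list numbered 10 without mouse 1 and 11 without mouse 2.

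Immediate-early and heat shock genes, which many stimuli induce quickly, were higher in bright tdT cells. Of 18 immediate-early genes 13 were called higher and 1 lower, with medians of 1.45, 1.41 and 1.42 in the 3 mice. Fos was at 763, 948 and 735 CPM in dim tdT and 4183, 5902 and 4486 CPM in bright tdT libraries (log2 fold change 2.57, standard error 0.17, adjusted p = 5.88e-05). Egr1 was at 586, 1072 and 686 CPM in dim tdT and 3277, 6542 and 4215 CPM in bright tdT libraries (log2 fold change 2.57, standard error 0.17, adjusted p = 5.74e-05). Myc was at 59.98, 49.4 and 73.2 CPM in dim tdT and 10.47, 11.3 and 12.3 CPM in bright tdT libraries and was the member called lower (log2 fold change -2.41, standard error 0.29, adjusted p = 0.000868). Nr4a1 was not called (-0.22, adjusted p = 0.383). Of 15 heat shock genes 11 were called higher and 0 lower. Hspa1a, an inducible HSP70, was at 436, 759 and 139 CPM in dim tdT and 3866, 5608 and 3064 CPM in bright tdT libraries, with mouse 2 highest in both subpopulations (log2 fold change 3.48, standard error 0.33, adjusted p = 0.000314). Hspb1 and Dnajb1 rose by 3.82 and 2.68, while the mitochondrial chaperones Hspd1 and Hspe1 were not called (0.19 and 0.25). Hspa1a and its neighbour Hspa1b are near-identical copies between which reads can be split.

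Markers of other kidney cells were present in both subpopulations. Of 12 podocyte markers 7 were called lower and 2 higher, and 4 calls were made without mouse 2. Wt1, the podocyte factor, was at 31.4, 79.4 and 82.7 CPM in dim tdT and 16.9, 17.2 and 17.2 CPM in bright tdT libraries (log2 fold change -1.81, standard error 0.36, adjusted p = 0.00811), and the calls of Nphs1 and Wt1 were lost without mouse 2. Podxl, the sialomucin podocalyxin that endothelium makes as well, was at 193, 306 and 296 CPM in dim tdT and 815, 1050 and 996 CPM in bright tdT libraries and rose (log2 fold change 1.87, standard error 0.18, adjusted p = 0.000356). Clic5, an intracellular channel protein of podocytes and GEC, rose by 2.24.

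Mesangial and mural markers were called higher in 7 of 10 and lower in 0, with 4 calls without the mouse block and 3 without mouse 2. Pdgfrb, the PDGF receptor of mesangial cells and pericytes, was at 17.4, 13.8 and 9.40 CPM in dim tdT and 101.3, 63.1 and 53.0 CPM in bright tdT libraries (log2 fold change 2.41, standard error 0.28, adjusted p = 0.000718). Itga8, a mesangial integrin, was at 109, 79.3 and 70.2 CPM in dim tdT and 610.3, 321 and 278 CPM in bright tdT libraries (log2 fold change 2.16, standard error 0.21, adjusted p = 0.000356). Their sum was 505 to 1102 CPM in the bright tdT and 156 to 242 in the dim tdT libraries. The part of mesangial cells in the other genes that rose was not tested.

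Proximal tubule markers were lower in 13 of 17, and higher in 0. Slc34a1, a sodium phosphate transporter, was at 2151, 458 and 538 CPM in dim tdT and 1000, 119 and 199 CPM in bright tdT libraries. Mouse 1 had the highest value in both subpopulations, the groups overlapped, and the bright tdT library was lower within each mouse (log2 fold change -1.49, standard error 0.22, adjusted p = 0.00203). The markers summed to 9587, 2202 and 2041 CPM in the dim tdT and 4262, 694 and 1041 in the bright tdT libraries. The number of calls in this list was 0 without the mouse block, 7 without mouse 1 and 4 without mouse 2. Of 15 markers of later segments 5 were called lower and 3 higher, and 4 calls were made without mouse 1 and 4 without mouse 2. Umod of the thick ascending limb was at 108, 206 and 118 CPM in dim tdT and 26.4, 36.5 and 41.3 CPM in bright tdT libraries (log2 fold change -2.02, standard error 0.27, adjusted p = 0.0015). Foxi1, the factor of intercalated cells, was at 1.19, 2.46 and 0.0847 CPM in dim tdT and 50.2, 9.68 and 13.2 CPM in bright tdT libraries (log2 fold change 4.12, standard error 0.75, adjusted p = 0.00517).

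Mitochondrial and ribosomal transcripts were lower in bright tdT cells. All 12 tested genes of the mitochondrial genome that encode proteins were called lower, with medians of -1.62, -2.40 and -1.79 in the 3 mice. mt-Co1, a subunit of cytochrome c oxidase, was at 15714, 12390 and 11682 CPM in dim tdT and 5437, 2550 and 2898 CPM in bright tdT libraries (log2 fold change -1.94, standard error 0.20, adjusted p = 0.000425). The nuclear genes of oxidative phosphorylation had a median of -0.57, and 18 of 78 were called lower and 1 higher. The share called lower was 23.1%, beside 15.1% of all genes tested. The number of these calls was 1 without the mouse block, 4 without mouse 1, 0 without mouse 2 and 10 without mouse 3. Of 88 cytosolic ribosomal protein genes 63 were lower and 2 higher, and 20 were called without mouse 2. Rps3a1 was at 2887, 2541 and 3531 CPM in dim tdT and 1408, 681 and 1157 CPM in bright tdT libraries (log2 fold change -1.52, standard error 0.21, adjusted p = 0.00175). Many ribosomal protein genes have near-identical pseudogenes, so that their counts are uncertain.

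Genes of glycolysis were lower in 10 and higher in 2 of 23, with 6 calls without mouse 1 and 4 without mouse 2. Pfkfb3, an activator of endothelial glycolysis, was at 67.98, 62.1 and 70.7 CPM in dim tdT and 151, 138 and 138 CPM in bright tdT libraries and rose (log2 fold change 1.09, standard error 0.21, adjusted p = 0.0077). The call of Pfkfb3 was lost without mouse 1 or mouse 2. The next lists held few calls, and the shares called lower were 12.5% for fatty acid oxidation and 27.8% for sterol genes, beside 15.1% of all genes tested. Of 24 fatty acid oxidation genes 3 were lower, 1 was called without mouse 1, 1 without mouse 2 and 0 without the mouse block. Sterol genes were lower in 5 of 18, with 0 calls without mouse 2, 3 without mouse 3 and 2 without the mouse block. Antioxidant enzymes were lower in 10 of 25 and higher in 1, the endoplasmic reticulum peroxiredoxin Prdx4 (log2 fold change 1.76, standard error 0.21, adjusted p = 0.000845), and 7 calls were made without the mouse block and 7 without mouse 2. Cell cycle genes showed no common direction, with 4 higher and 2 lower of 23, 26.1% in all beside 31.2% of all genes tested, and a median of 0.12, and 1, 3 and 2 were called without mouse 1, 2 and 3 in turn. Pcna, the replication clamp, was at 100.1, 88.4 and 106 CPM in dim tdT and 257, 238 and 264 CPM in bright tdT libraries (log2 fold change 1.37, standard error 0.20, adjusted p = 0.00196). Mki67, a marker of dividing cells, was at 2.39, 4.25 and 2.54 CPM in dim tdT and 0.336, 1.64 and 0.538 CPM in bright tdT libraries (log2 fold change -1.90, standard error 0.54, adjusted p = 0.0318) and was not called when any 1 mouse was left out, without the mouse block, with DESeq2 or with edgeR's older dispersion fit.

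**Figure D5:**
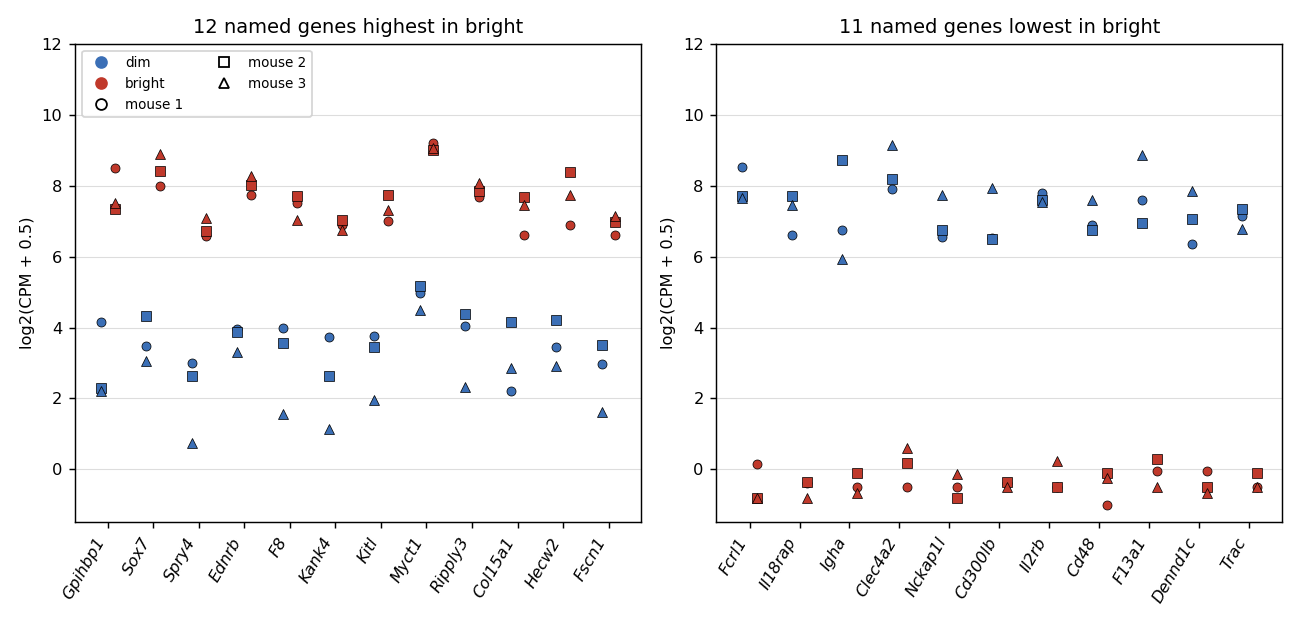
Levels of called genes without overlap and with a mean of at least 100 CPM in one group, the 12 that rose most and 11 of the 12 that fell most, as log2(CPM + 0.5) in each WT-dim tdT (blue) and WT-bright tdT (red) library (one symbol per mouse). The genes were chosen for having no overlap, so that the gap between the groups is given by the choice. The genes of the right panel lie near the bottom of the scale in each bright tdT library.

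Among called genes without overlap and with a mean of at least 100 CPM in one group, those highest in bright tdT cells were Gpihbp1, Sox7, Spry4, Ednrb, F8, Kank4, Kitl, Myct1, Ripply3, Col15a1, Hecw2 and Fscn1, with log2 fold changes from 4.92 to 4.18. Kitl, the ligand of the receptor Kit, was at 12.9, 10.4 and 3.39 CPM in dim tdT and 129, 212 and 159 CPM in bright tdT libraries (log2 fold change 4.28, standard error 0.42, adjusted p = 0.000361). Myct1, a membrane protein of endothelium, was at 30.8, 35.4 and 22.02 CPM in dim tdT and 591, 511 and 538 CPM in bright tdT libraries (log2 fold change 4.24, standard error 0.24, adjusted p = 3.24e-05). Spry4, an inhibitor of receptor tyrosine kinase signalling, was at 7.497, 5.69 and 1.19 CPM in dim tdT and 95.3, 104 and 136 CPM in bright tdT libraries (log2 fold change 4.57, standard error 0.51, adjusted p = 0.000668). Those lowest included Fcrl1, Il18rap, Igha, Clec4a2, Nckap1l, Cd300lb, Il2rb, Cd48, F13a1, Dennd1c and Trac, with log2 fold changes from -9.995 to -8.92. Il2rb, a cytokine receptor chain of T and natural killer cells, was at 219.8, 194 and 187 CPM in dim tdT and 0.201, 0.214 and 0.673 CPM in bright tdT libraries (log2 fold change -9.06, standard error 0.41, adjusted p = 4.15e-06). Igha, the constant region of immunoglobulin A, was at 108, 419.6 and 61.1 CPM in dim tdT and 0.201, 0.427 and 0.135 CPM in bright tdT libraries, with mouse 2 highest in both subpopulations (log2 fold change -9.50, standard error 0.38, adjusted p = 1.64e-06). F13a1, a coagulation factor made by monocytes and macrophages, was at 192, 122.8 and 466 CPM in dim tdT and 0.470, 0.712 and 0.202 CPM in bright tdT libraries (log2 fold change -9.04, standard error 0.51, adjusted p = 7.17e-06).

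Of 16 genes taken from the study's PCR, blot, cytometry and staining assays, with Cav1 and Ppargc1a from staining alone, 14 could be tested. Among the 14, 6 were called higher and 6 lower. The study chose the 16 genes partly on these libraries, so their directions are not independent of the data. Apln was listed in the bright tdT table alone and Aplnr had too few counts to be tested. Apom, a carrier of sphingosine-1-phosphate made in the proximal tubule, was at 384, 89.1 and 31.8 CPM in dim tdT and 145, 12.2 and 27.0 CPM in bright tdT libraries (log2 fold change -1.48, standard error 0.45, adjusted p = 0.0443), highest in mouse 1 in both subpopulations. Prom1, a membrane protein of epithelial progenitors, was at 51.6, 27.9 and 23.2 CPM in dim tdT and 31.4, 7.12 and 10.4 CPM in bright tdT libraries (log2 fold change -1.22, standard error 0.35, adjusted p = 0.036). The calls of Apom and Prom1 were lost without mouse 1, without mouse 2 and without the mouse block, that of Apom also with library sizes alone, without a filter on low counts and with edgeR's older dispersion fit, and the list had 7 calls without mouse 2. Mmp12, a macrophage elastase, was at 13.5, 39.99 and 22.2 CPM in the dim tdT libraries and had no count in any bright tdT library, so that it was at least 122.6-fold lower there against a floor of 3 counts per library. Ppargc1a, a coactivator of mitochondrial genes, was at 9.46, 14.9 and 6.10 CPM in dim tdT and 7.25, 3.63 and 4.04 CPM in bright tdT libraries and was not called (log2 fold change -1.0, standard error 0.49, adjusted p = 0.166).

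For many endothelial and some podocyte and proximal tubule genes the bright-to-dim log2 fold change had a higher value in AS than in WT mice. A fit of all 12 libraries with each mouse as a block called 877 of 15084 genes, 5.81%, for a difference in log2 fold change between AS and WT, 646 of them with the higher value in AS. Of the 20 pan-endothelial markers 18 were called with the higher value in AS and 0 with the lower, and of the 12 pan-leukocyte markers 0 were called. In this fit Emcn was 3.83 higher on the log2 scale in bright tdT than in dim tdT cells of WT mice, and 6.38 higher in AS mice. The difference was 2.55 (standard error 0.33, adjusted p = 0.00484). Its mean was 291 CPM in WT-dim tdT and 40.5 in AS-dim tdT libraries, and 4142 in WT-bright tdT and 3314 in AS-bright tdT libraries. The larger gap of Emcn in AS thus went with a lower dim tdT level. Col4a5, the gene mutated in AS mice, was counted in all 6 AS libraries and had a difference of 4.13 (adjusted p = 0.00769). It was at 67.6, 37.1 and 73.9 CPM in the WT-dim tdT and 3.60, 1.99 and 1.36 CPM in the AS-dim tdT libraries, which did not overlap. In bright tdT cells it was at 9.996, 4.92 and 5.13 CPM in WT and 3.13, 6.79 and 4.004 CPM in AS, which overlapped. Of the 20 basement membrane genes 12 were called with the higher value in AS, and of the 12 podocyte markers 6. Of the 17 proximal tubule markers 8 were called with the higher value in AS, and of the 15 markers of later tubule segments 1. For Nphs1 the log2 fold change was -2.73 in WT and 0.51 in AS, a difference of 3.24, and for Wt1 it was -1.86 and 0.76, so that the subpopulations lay closer together in AS for both genes. Podxl, at 1.82 in WT and 3.97 in AS, had the larger gap in AS. No member of the interferon-stimulated, immediate-early and MHC class II lists was called. Fewer genes were called without AS mouse 1 (66), AS mouse 3 (95), AS mouse 2 (354) or WT mouse 2 (456), and 569 without the mouse block.

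On the GRCm38 annotation Cdh5 lies at chromosome 8, 104101625 to 104144511, plus strand, Emcn at chromosome 3, 137341067 to 137432185, plus strand, Kdr at chromosome 5, 75932827 to 75978458, minus strand, Col4a1 at chromosome 8, 11198423 to 11312826, minus strand and Fn1 at chromosome 1, 71585520 to 71653200, minus strand. Genes described above that overlap another protein-coding gene with a name of its own are Angpt2 (Mcph1), B2m (Patl2), Bmp6 (Txndc5), Cd37 (Tead2), Clec9a (Clec1b), Col4a1 and Col4a2 (each other), Cxcl10 (Art3), Dennd1c (Crb3), Eng (Fpgs), Ephb4 (Zan), Esm1 (Gzmk), F8 (Fundc2), Hspd1 and Hspe1 (each other), Lyl1 (Nfix), Mmp12 (Mmp1b), Nos3 (Atg9b), Plpp1 (Mtrex), Plvap (Gtpbp3), Slc34a1 (Pfn3) and Timp3 (Syn3).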

How the data were processed

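RNA of sorted WT-dim tdT and WT-bright tdT cells (n = 3 mice each), all labelled GEC, was sequenced. The labels name a low input kit and the methods a stranded poly-A kit of the same maker, and which was used is not clear. The authors deposited raw counts per gene, one table for dim tdT and one for bright tdT libraries, after STAR 2.6.0c on GRCm38.p5, with FastQC 0.11.5, cutadapt, Trimmomatic and edgeR also named in the submitters' processing notes. Each table keeps genes with more than 3 counts in at least 2 of its 6 libraries. The tables were joined by Ensembl ID, and the 2043 and 1753 genes listed in only one of them were not tested. Genes were filtered with filterByExpr, scaled by TMM and tested with edgeR 4.0.16 (R 4.3.3), with the mouse as a block. Pairs came from the animal number in the labels. Deviations from group means correlated at 0.288, 0.223 and 0.0974 within mice and at -0.101 between mice. Since the deviations cancel out within each group, the value between mice follows from those within mice and is no separate measure of the pairing. Alternatives used DESeq2 1.42.0 and other settings. CPM precision was limited by 11440169 to 15007638 counts per library.

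Named were the 12 highest and 12 lowest called genes without overlap and with a mean of at least 100 CPM in a group, up to 3 most abundant called and up to 3 called opposite members of each list, the genes the study assayed, and the 5 largest WT to AS differences each way with at least 10 CPM. Of 167 genes described, 122 followed this rule and 45 were chosen after their values were seen. Some genes that the rule names are not reported here, and they remain in the fits, list counts and sums. The members and lists were chosen with earlier results of these data known. Each mouse is 1 replicate. Promoters are from RefSeq on GRCm38.p6.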

Additional observations from a re-analysis of the deposited data

Results flagged for a closer look

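The difference between bright tdT and dim tdT cells was not the same size in AS and WT mice for 877 genes, by edgeR's test of the difference itself in a fit of all 12 libraries, with p-values adjusted over the 15084 genes tested. The values below are the log2 fold change in AS minus the one in WT. A higher value can go with a lower level in AS-dim tdT or a higher one in AS-bright tdT libraries. Tek had means of 15.8 CPM in WT-dim tdT and 2.64 in AS-dim tdT libraries, and 194 and 256 in the bright tdT libraries. Ednrb had means of 12.9 and 13.8 CPM in the dim tdT libraries of WT and AS, and 256 and 881 in the bright tdT libraries.

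Most of the genes described in the report that were called had the higher value in AS. Endothelial surface, junction and receptor genes were Tek (2.99), Kdr (3.56), Cdh5 (2.56), Pecam1 (1.64), Emcn (2.55), Eng (2.75), Cd34 (2.94), Icam2 (1.48), Cldn5 (3.85), Ephb4 (2.80), Ednrb (1.73), F2r (1.75), Myct1 (1.65), Ptprb (2.49) and Cx3cl1 (2.94). Genes of endothelial membrane traffic, lipid handling and coagulation were Ehd3 (2.13), Ehd2 (2.11), Cav1 (3.87), Plat (3.14), Lpl (1.57), Plpp1 (3.27), Plpp3 (2.54), Ptgs1 (1.997) and Fcgrt (1.48). Transcription factors and signalling genes were Gata5 (4.20), Tbx3 (3.19), Sox17 (2.84), Dll4 (2.65), Bmp6 (3.37), Irf8 (1.54) and Svep1 (5.24). Basement membrane genes, an integrin and a protease inhibitor were Col4a1 (2.96), Col4a2 (2.65), Col4a3 (2.18), Col4a4 (2.29), Col4a5 (4.13), Hspg2 (3.33), Pxdn (2.44), Itga6 (1.85) and Timp3 (3.49). Podocyte markers were Nphs1 (3.24) and Wt1 (2.62), both with a negative log2 fold change in WT and a positive one in AS, and Podxl (2.15) and Clic5 (2.08), positive in both, and tubular genes Slc34a1 (1.47), Hnf4a (2.38) and Umod (1.89). Col4a3, Col4a4, Col4a5, Svep1, Irf8 and Hnf4a also had a negative log2 fold change in WT and a positive one in AS. Efna4 below turned in the same way, and Ttll3 below turned the other way. The chaperone Hspb1 (2.26) and mt-Co1 (1.57) were also called. Clec9a had the lower value in AS (-2.88).

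Among the largest differences of genes with a mean of at least 10 CPM in one group were Gchfr (7.48), Nova2 (6.62), Adamts16 (6.305), Efna4 (5.97) and Nsg1 (5.76) toward AS, and Gm15411 (-8.68), Nrg1 (-5.68), AC154176.2 (-5.68) and Ttll3 (-5.05) toward WT. Gchfr, a regulator of GTP cyclohydrolase, was at 17.5, 2.03 and 2.44 CPM in the WT-dim tdT libraries and at 0, 0.0829 and 0 in the AS-dim tdT libraries, while the bright tdT libraries of both genotypes were between 8.195 and 14.1. Mouse 1 was the highest of the WT-dim tdT libraries. Single libraries were far above the others of their group in 4 more of these genes. In the WT-dim tdT libraries Efna4 was at 2.19, 48.7 and 0.422, Nova2 at 2.54, 34.3 and 1.18 and Nsg1 at 0.965, 1.61 and 12.6 CPM, and Ttll3 was at 2.40, 103.7 and 6.62 CPM in the AS-dim tdT libraries. Nsg1, Ttll3 and AC154176.2 each overlap another protein-coding gene. Where a group has few or no counts, the fitted value depends on the prior count and is not a bound. Of the 59 genes with values here 35 were called without WT mouse 2, 13 without AS mouse 1, 33 without AS mouse 2, 15 without AS mouse 3 and 48 without the mouse block.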

How the results depend on the processing

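Of the 15768 genes 14247 had enough counts to be tested, and genes listed for 1 subpopulation alone could not be. Genes called with all mice numbered 4442, and 4442 with RLE normalization, 4365 with library sizes alone, 4331 without a filter on low counts and 4468 above an average log2 CPM of 1. They numbered 4768 with the likelihood ratio test, 4790 with DESeq2, 3663 with edgeR's older dispersion fit (an alternative chosen after seeing the data) and 5842 in the fit of all 12 libraries. The cut-offs of the study were applied to the reported fit, as unadjusted p below 0.05, average log2 CPM above 1 and absolute log2 fold change above 1.5. They passed 3201 genes, a count at another threshold than the calls, and the fit of the study itself was not rerun. Without 1 mouse they ranged from 1909 to 3750, with 996 to 1960 higher and 913 to 1790 lower. Without the mouse block, the unpaired fit called 3601 genes, of which 3565 were also called with it. No gene called both in the reported fit and in one of the other settings changed sign between them. The difference between WT and AS was called for 569 genes without the mouse block, and for 66 to 1090 without 1 of the 6 mice.

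Leaving out 1 mouse moved some list medians by more than the spread between the mice, with ranges over these fits of 3.09 to 3.40 for glomerular capillary, 1.26 to 2.85 for venous, -8.06 to -7.47 for pan-leukocyte, -7.64 to -6.31 for T cell, -9.51 to -8.33 for natural killer cell, -8.01 to -7.21 for B cell, -6.24 to -2.37 for dendritic cell, -8.78 to -7.74 for neutrophil, 2.25 to 3.31 for VEGF and angiopoietin, -3.74 to -2.83 for haematopoietic factor, 0.49 to 0.80 for coagulation, 2.58 to 3.36 for leukocyte adhesion, 2.34 to 3.12 for interstitial matrix, 0.52 to 1.01 for matrix integrin, -6.05 to -4.03 for chemokine receptor, -7.31 to -6.32 for MHC class II, -1.40 to -0.92 for Toll-like receptor, -6.92 to -6.68 for Fc receptor, -2.14 to -1.42 for complement, -0.38 to 0.076 for cell cycle, -0.84 to -0.72 for glycolysis, -0.83 to -0.50 for antioxidant and 0.26 to 2.05 for study-assayed. Other settings also moved medians by more than this spread. With no filter on low counts the median was 1.65 for venous, 2.80 for vasoactive, 1.06 for matrix integrin, -0.28 for cell cycle and 1.75 for study-assayed. With all 12 libraries the median was 1.58 for venous, 0.9999 for matrix integrin, 1.38 for immediate-early, -0.33 for cell cycle and 1.68 for study-assayed. With the likelihood ratio test the median was -7.78 for pan-leukocyte, -9.13 for natural killer cell, -7.73 for B cell, -4.01 for haematopoietic factor, 3.14 for interstitial matrix and 0.013 for glycocalyx. With edgeR's older dispersion fit the median was -7.77 for pan-leukocyte, -3.93 for haematopoietic factor and 3.11 for interstitial matrix. With DESeq2 the median was -7.84 for pan-leukocyte, -9.19 for natural killer cell, -7.83 for B cell, -8.03 for neutrophil, -4.04 for haematopoietic factor, 0.74 for coagulation, 3.10 for interstitial matrix and 1.39 for immediate-early. With an average log2 CPM above 1 the median was -4.98 for dendritic cell, 2.10 for erythroid, 3.27 for VEGF and angiopoietin, 2.68 for coagulation, 0.013 for matrix integrin, -4.63 for chemokine ligand and -0.93 for Toll-like receptor. With RLE normalization the median was 1.39 for immediate-early. With library sizes alone the median was 1.48 for immediate-early. Where the number of list members called moved by over 1.5 times without 1 mouse, it ranged over these fits from 4 to 9 for podocyte, 3 to 8 for mesangial, 4 to 15 for proximal tubule, 4 to 9 for later tubule, 6 to 10 for Notch, 1 to 5 for renal factor, 2 to 4 for fatty acid handling, 11 to 18 for basement membrane, 7 to 11 for interstitial matrix, 7 to 11 for glycocalyx, 5 to 10 for matrix integrin, 4 to 7 for metalloproteinase, 10 to 15 for interferon, 1 to 3 for cell cycle, 4 to 10 for glycolysis, 1 to 3 for fatty acid oxidation, 0 to 4 for sterol, 7 to 9 for antioxidant, 7 to 12 for study-assayed, 0 to 10 for nuclear oxidative phosphorylation and 20 to 54 for ribosomal protein. Other settings moved it as well. With no filter on low counts the number called was 2 for erythroid and 12 for nuclear oxidative phosphorylation. With no mouse block the number called was 4 for mesangial, 0 for proximal tubule, 2 for cell cycle, 0 for fatty acid oxidation, 2 for sterol, 7 for antioxidant and 1 for nuclear oxidative phosphorylation. With edgeR's older dispersion fit the number called was 3 for renal factor, 2 for cell cycle and 9 for nuclear oxidative phosphorylation. With DESeq2 the number called was 8 for renal factor and 3 for cell cycle. With all 12 libraries the number called was 8 for renal factor, 9 for sterol and 32 for nuclear oxidative phosphorylation. With library sizes alone the number called was 11 for nuclear oxidative phosphorylation. The cell cycle median changed sign without a filter on low counts, with all 12 libraries (both values above), without mouse 1 (-0.012) and without mouse 3 (-0.38). Of single genes Hspd1 was at -0.18 and Nsg1 at -0.66 without mouse 2, with highest values without 1 mouse of 0.49 and 2.42. AC154176.2 was at -0.00226 with RLE normalization, -0.00689 without the mouse block, -0.015 with all 12 libraries and -0.88 to 0.85 without 1 mouse. The cause of these changes was not tested. Over the 273 genes followed singly, 3048 of 3274 values kept their direction and their side of the threshold, 194 lost the call, 26 gained it and 6 changed sign.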
